A study of Hordeum vulgare with 10 samples.

Results

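The miR5051 family is a family of small RNAs described from barley, a cereal of the grass tribe Triticeae. The deposited table lists 4 miR5051 rows, named miR5051.1 to miR5051.4, among 61 known miRNAs of 13 families. A further row, hvu-new81, is a miRNA that was predicted from the genome and has the same sequence as miR5051.4. Both names therefore read the same molecule, and hvu-new81 was kept out of every sum over the family. The 4 family rows and hvu-new81 make up 5 of the 142 rows of the table. They were chosen by name and sequence, not by their values, though earlier results of these data were known.

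Small RNA was sequenced from embryos with their scutella, dissected from dry barley seeds (cv. Damazy). The low viability seeds (Lv) and the high viability seeds (Hv) came from the same 1972 seed lot, were kept in separate sealed flasks until 2018. Lv seeds then germinated at 2%, while Hv seeds had kept a high germination. The non-stored control (Rc) was harvested after Hv seeds had been regenerated in the field, so that all 3 groups share the cultivar, and flask, harvest and storage cannot be told apart. Each group had 3 libraries, and p-values measure only the spread between libraries of the same flask or harvest.

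The libraries were shallow for these molecules. Raw counts over all rows ran from 3966 to 11209 in Lv, from 4179 to 14618 in Hv and from 7159 to 19542 in Rc. The counts of known miRNAs were 1.30 to 1.73 times in Lv, 1.17 to 2.26 times in Hv and 1.58 to 2.53 times in Rc the reads that the study lists as matched to miRNAs, and levels relative to mapped reads carry that factor. All Lv libraries and Hv replicate 3 were sequenced in run 2, while Hv replicates 1 and 2 and Rc replicates 2 and 3 were sequenced in run 1. For Rc replicate 1 both runs were listed, and which of them its column holds is not known here. A table of miRNAs holds no marker genes of the embryo or scutellum, so the tissue label was not checked.

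Plant miRNAs are cut from a folded precursor by a Dicer-like enzyme, which releases a short duplex with overhanging 3′ ends. A methyltransferase protects the 3′ ends, and one strand is loaded into an Argonaute protein, where it guides the cleavage or repression of transcripts that pair with it. In Arabidopsis, strands that begin with U are mostly loaded into AGO1. Forms of one miRNA that differ at an end are called isomiRs, and a seed sequence here means bases 2 to 8 from the 5′ end. In a dry seed metabolism is arrested, so that the miRNAs of the embryo are those present when the seed dried, less any that broke down since.

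The sequences of the rows are shown to make clear that they differ only at the 3′ end, with the seed in capitals.
miR5051.2: uUUGGCACcuugaaacugg
miR5051.3: uUUGGCACcuugaaacuggg
miR5051.4: uUUGGCACcuugaaacuggga
hvu-new81: uUUGGCACcuugaaacuggga
All begin with U at the same 5′ end. miR5051.4 and hvu-new81 had 21 bases, miR5051.3 had 20 and lacked the final A, and miR5051.2 had 19 and lacked the final GA. Of the 128 rows with a sequence in the sources used here, exactly these 4 carried the seed UUGGCAC. miR5051.1 had no sequence in these sources and is named only.

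The precursor listed for hvu-new81 is shown to locate the mature strand, with the star strand (the first run of capitals) and the mature strand (the second run) in capitals.
hvu-new81 precursor: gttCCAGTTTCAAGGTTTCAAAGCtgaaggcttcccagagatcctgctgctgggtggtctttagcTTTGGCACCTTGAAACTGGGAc
The mature strand was listed at chr4H:588904644-588904664 on the minus strand of the IBSC_v2 build, as given by the authors, and these positions were not checked against a genome. The precursor had 87 bases and carried the mature strand on its 3′ arm, at positions 66 to 86. The star strand lay at positions 4 to 24, with 41 bases between both arms. Folding with RNAfold gave a minimum free energy of -58.7 kcal/mol. In this fold 20 of the 21 mature bases were paired, 18 of them as Watson-Crick pairs and 2 as G-U pairs. The only unpaired base was the C at position 6, and both strands ended in 3′ overhangs of 2 bases. No row of the table with a sequence held the star strand, so its level was not analysed here.

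Most counts of the family came from the full-length form. Over the 9 libraries miR5051.4 had 113 of the 135 family counts, or 83.7%, miR5051.3 had 18 (13.3%), miR5051.2 had 3 (2.22%) and miR5051.1 had 1 (0.741%). miR5051.4 was found in all 9 libraries and miR5051.3 in 7 of them. The single count of miR5051.1 was in Hv replicate 2. In the other libraries its count of 0 allowed levels of up to 6.85 to 17.3 RPM (counts per 1000000 mapped reads), taking 3 counts as the limit. miR5051.2 had 1 count in Lv replicate 3 and 2 counts in Rc replicate 3.

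In replicates 1 to 3, miR5051.4 had 7, 13 and 12 counts in Lv, 5, 19 and 10 counts in Hv, and 13, 4 and 30 counts in Rc. The lowest and the highest count were both in Rc, and the ranges of the 3 groups overlapped. hvu-new81 had 6, 13 and 9 counts in Lv, 5, 19 and 6 counts in Hv, and 13, 4 and 30 counts in Rc. It was thus at or below miR5051.4 in every library.

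**Figure D1:**
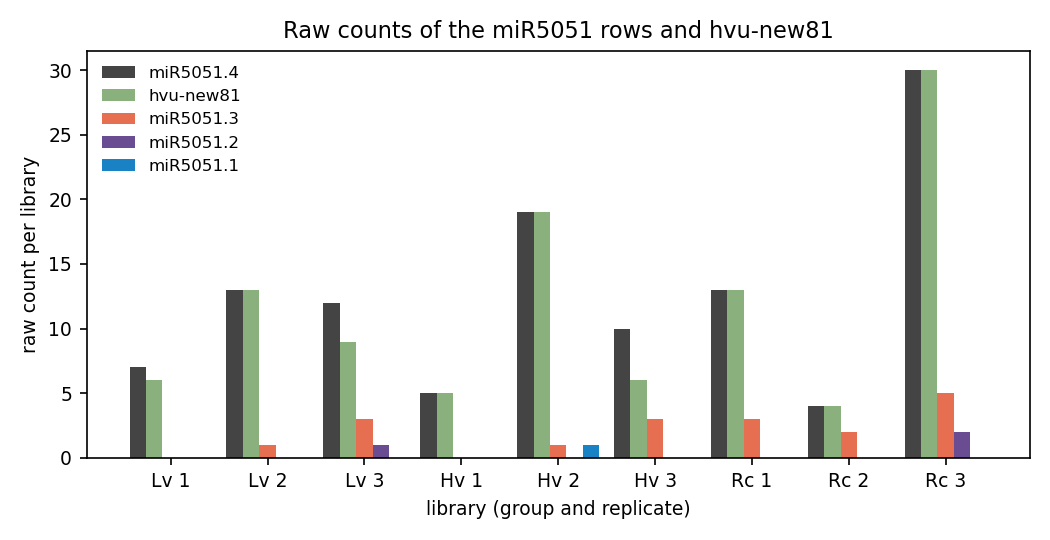
Raw counts of the 4 miR5051 rows and hvu-new81 in each library, with bars coloured by row and libraries along the x axis. miR5051.4 and hvu-new81 stand highest in every library, from 4 to 30 counts, and their bars are of equal height in 6 of the 9 libraries.

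Relative to mapped reads, miR5051.4 stood at 40.4, 40.1 and 30.7 RPM in Lv, 25.3, 66.3 and 23.3 RPM in Hv, and 54.2, 16.6 and 68.5 RPM in Rc. Lv libraries lay close to each other, while Hv and Rc each held both low and high libraries. The mean was 37.0 ± 5.50 RPM in Lv, 38.3 ± 24.3 RPM in Hv and 46.4 ± 26.8 RPM in Rc (SD, n = 3 each). In order of the means Rc came first, then Hv, then Lv, and no neighbours in that order differed beyond their spread. As in any bulk sample, fewer cells of a type and less RNA per cell cannot be told apart.

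The scale of the level changed that order. As a share of the known miRNA counts of its library, miR5051.4 made up 0.572 ± 0.154% in Lv, 0.553 ± 0.327% in Hv and 0.540 ± 0.269% in Rc (SD, n = 3 each). On this scale Lv came first, and again the groups overlapped. In CPM (counts per 1000000 counts of the table, after TMM scaling), the means were 1334 ± 173 in Lv, 1280 ± 608 in Hv and 1257 ± 639 in Rc (SD, n = 3 each). The totals behind CPM include predicted rows that repeat known sequences.

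Low counts limited the precision of each level. With 4 counts in Rc replicate 2, the exact 95% interval of miR5051.4 ran from 4.53 to 42.6 RPM, and with 30 counts in Rc replicate 3 it ran from 46.2 to 97.8 RPM. Counting alone at the mean count of the group would give a coefficient of variation of 30.6% in Lv, 29.7% in Hv and 25.3% in Rc. The observed coefficient was 14.8% in Lv, 63.4% in Hv and 57.7% in Rc. The spread between libraries was thus below the counting level in Lv and above it in Hv and Rc. These intervals cover counting error only, since reads amplified by PCR without molecular identifiers are not independent molecules.

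**Figure D2:**
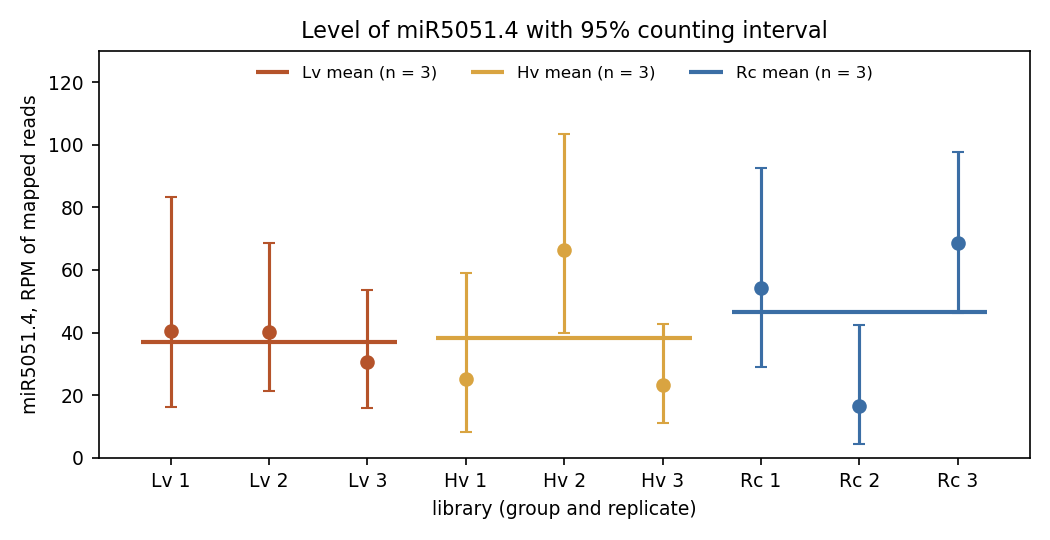
Level of miR5051.4 in RPM of mapped reads per library, with points for libraries, bars for exact 95% counting intervals and horizontal lines for group means. The means lie at 37.0 RPM in Lv, 38.3 RPM in Hv and 46.4 RPM in Rc, inside the scatter of the Hv and Rc libraries.

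The family sum, without hvu-new81, gave 7, 14 and 16 counts in Lv, 5, 21 and 13 counts in Hv, and 16, 6 and 37 counts in Rc. This corresponded to 41.5 ± 1.48 RPM in Lv, 42.9 ± 26.4 RPM in Hv and 58.7 ± 30.6 RPM in Rc (SD, n = 3 each). The Lv libraries lay between 40.4 and 43.2 RPM and inside the range of each of the other groups, 25.3 to 73.3 RPM in Hv and 24.9 to 84.5 RPM in Rc. Their coefficient of variation was 3.56%, where counting alone would give 28.5%, so the close Lv values do not show a uniform level. Among the 13 families of known miRNAs, miR5051 ranked 6 by total counts and also 6 in each of the 3 groups.

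Its neighbours in that order were miR5048 above, another family known from barley, and miR171 below, a family conserved across land plants that targets GRAS transcription factors. miR5048 had 394 counts over the 9 libraries and exceeded miR5051 in all 9, by 1.43 to 5.83 times. miR171 had 39 counts, between 0 and 9 in a library, and lay below miR5051 in all 9 libraries. The mean level of miR5048 was 130 ± 23.2 RPM in Lv, 134 ± 36.4 RPM in Hv and 159 ± 21.1 RPM in Rc (SD, n = 3 each). The rank of miR5051 therefore did not change between stored and regenerated seeds.

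The comparison of Lv with Hv asks whether miRNA levels differ between seeds of different viability after the same years of storage. By the study's account seed moisture rose in the Lv flask, so that viability, moisture and flask cannot be told apart. edgeR's quasi-likelihood test was run on 99 miRNAs, those that reached 10 counts summed over all libraries, and 3 of the 5 members (miR5051.3, miR5051.4 and hvu-new81) passed this filter. The log2 fold change of miR5051.4 in Lv over Hv was 0.05 (SE 0.62, 95% interval -1.36 to 1.47, edgeR adjusted p = 1). None of the members was called, where the share called over all miRNAs tested was 0% by edgeR, with 5 of 99 at an unadjusted p under 0.05 and 0 calls by DESeq2. The interval still allows differences of over 2-fold in either direction, so it does not show equal levels.

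Stored seeds, Lv and Hv together, were set against Rc, a comparison in which storage cannot be told apart from harvest and flask. miR5051.4 had a log2 fold change of 0.04 in stored over Rc seeds (SE 0.54, 95% interval -1.17 to 1.26, edgeR adjusted p = 0.992). The share called over all miRNAs was again 0% by edgeR, with 10 of 99 at an unadjusted p under 0.05, and DESeq2 called 3 miRNAs, none of them a member. On the log2(RPM + 1) scale the difference was -0.16, with an exact two-sided permutation p of 0.786 where the smallest possible p is 0.0238. The sign thus turned with the scaling, and neither value stood out from the spread between libraries.

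Lv and Hv were also each set against Rc, which is the same control in both. The log2 fold change of miR5051.4 was 0.07 in Lv over Rc (SE 0.62, 95% interval -1.34 to 1.47, edgeR adjusted p = 0.979) and 0.02 in Hv over Rc (SE 0.62, 95% interval -1.39 to 1.42, edgeR adjusted p = 0.999). The share called was 0% in both comparisons by edgeR, with 9 and 6 of 99 miRNAs at an unadjusted p under 0.05, while DESeq2 called 2 and 1, none of them a member. These 2 signs, too, turned when library sizes were taken from mapped reads, to -0.34 and -0.28. The biological coefficient of variation that edgeR estimated for miR5051.4 was 47.1%, and 26 of the 76 miRNAs with a finite interval had a narrower one in the stored against Rc comparison.

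Within a sequencing run only few libraries of miR5051.4 could be set side by side. In run 2 the Lv libraries had 40.4, 40.1 and 30.7 RPM and the single Hv library lay below them, at 23.3 RPM. In run 1 the Hv libraries had 25.3 and 66.3 RPM and the Rc libraries had 16.6 and 68.5 RPM, which overlapped. Adding the run to the model, for which Rc replicate 1 had to be dropped, gave log2 fold changes of 0.74 in Lv over Hv (SE 0.87, edgeR adjusted p = 1) and 0.82 in stored over Rc seeds (SE 0.87, edgeR adjusted p = 1.00). It gave 1.19 in Lv over Rc (SE 1.15, edgeR adjusted p = 1.00) and 0.45 in Hv over Rc (SE 0.75, edgeR adjusted p = 0.905). All 4 are larger than without the run, and none was called. Dropping Rc replicate 1 alone gave 0.04 in Lv over Hv and 0.20 in stored over Rc seeds. It gave 0.23 in Lv over Rc and 0.18 in Hv over Rc. In the run fit all Lv libraries were of run 2 and the remaining Rc libraries of run 1. The run term thus rested on Hv replicate 3 against Hv replicates 1 and 2.

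**Figure D3:**
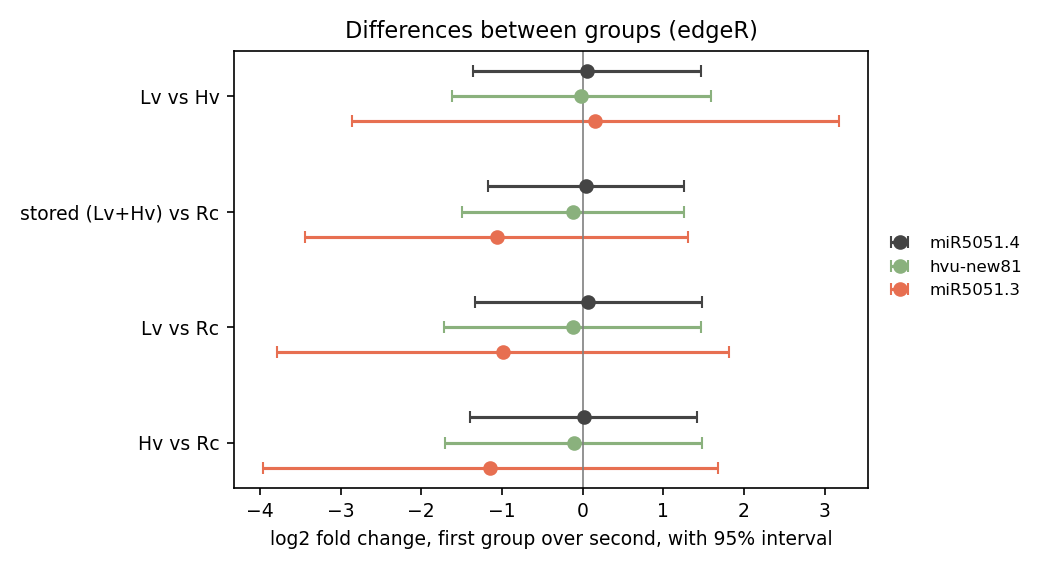
Log2 fold changes, first-named group over the second, of miR5051.4, hvu-new81 and miR5051.3 in 4 comparisons, with 95% intervals computed from the edgeR fit as bars. All 12 intervals cross 0, and those of miR5051.3 are the widest of the 3 molecules, from -3.43 to 1.31 in stored against Rc seeds.

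The 20-base form miR5051.3 was the member that lay farthest from 0 in the comparisons with Rc. It had 0, 1 and 3 counts in Lv, 0, 1 and 3 counts in Hv, and 3, 2 and 5 counts in Rc. In RPM this was 0, 3.08 and 7.68 in Lv, 0, 3.49 and 6.98 in Hv, and 12.5, 8.31 and 11.4 in Rc. In RPM the values of all stored libraries were below those of all Rc libraries. As a share of known counts they were narrowly so, with 0.112% in the highest stored and 0.113% in the lowest Rc library. They were not in counts or in TMM-scaled CPM, where the highest stored library had 292 and the lowest Rc library 263. The 0 counts of Lv replicate 1 and Hv replicate 1 allowed up to 17.3 and 15.2 RPM, taking 3 counts as the limit. These limits lie above every Rc value, so that these libraries cannot be placed below Rc. Of the 99 miRNAs tested, 6 (6.06%) had all stored libraries below all Rc libraries in RPM and 7 (7.07%) as a share of known counts, miR5051.3 among them on both scales.

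By edgeR, the log2 fold change of miR5051.3 in stored over Rc seeds was -1.06 (SE 1.04, 95% interval -3.43 to 1.31, adjusted p = 0.764). It was -0.98 in Lv over Rc (SE 1.23) and -1.14 in Hv over Rc (SE 1.24), against 0.16 in Lv over Hv (SE 1.33). Single libraries moved these values: Lv over Rc became -2.05 without Lv replicate 3 and -0.59 without Lv replicate 1, and Hv over Rc became -2.08 without Hv replicate 3 and -0.76 without Hv replicate 1. No comparison called it, so that the lower values in stored seeds are given as levels only. With 18 counts over 9 libraries, even a level 4-fold lower in stored seeds lies within the interval, and so do equal and higher levels.

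Shortened forms were then taken as a share of all miR5051 counts with a known sequence. miR5051.2 and miR5051.3 together made up 0 of 7, 1 of 14 and 4 of 16 counts in Lv, 0 of 5, 1 of 20 and 3 of 13 counts in Hv, and 3 of 16, 2 of 6 and 7 of 37 counts in Rc. In percent this was 0, 7.14 and 25 in Lv, 0, 5 and 23.1 in Hv, and 18.8, 33.3 and 18.9 in Rc. The exact 95% interval reached 41.0% for the 0 of 7 counts and 52.2% for the 0 of 5 counts. Replicate 3 of each stored group thus lay within the range of Rc, while the other stored libraries lay below it.

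The mean share was 10.7 ± 12.9% in Lv and 9.36 ± 12.1% in Hv (SD, n = 3 each), or 10.0 ± 11.2% in stored seeds (SD, n = 6), and 23.7 ± 8.37% in Rc (SD, n = 3). The difference of stored minus Rc was -13.6 percentage points, with an exact two-sided permutation p of 0.143 (0.4 after Benjamini-Hochberg adjustment over the 4 comparisons). The difference kept its sign under all 11 alternatives. Of these, 9 left out 1 library, which could not turn the sign with every Rc share at 18.75% or more. None of the alternatives took up the run. Lv and Hv differed by 1.36 percentage points (exact permutation p = 0.8). The difference from Rc was -12.95 percentage points in Lv and -14.3 in Hv (exact permutation p = 0.3 each), where 3 libraries against 3 cannot give a p below 0.1. The Lv difference became -20.1 without Lv replicate 3, -7.60 without Lv replicate 1, -8.12 without Rc replicate 2 and -6.83 with counts summed over libraries, and the Hv difference became -9.48 without Rc replicate 2. The stored difference became -8.80 without Rc replicate 2 and -8.34 with counts summed. None of these differences stood out from the spread between libraries.

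The share also varied within a run. In run 2 it was 0, 7.14 and 25% in the Lv libraries and 23.1% in the Hv library, and in run 1 it was 0 and 5% in the Hv libraries and 33.3 and 18.9% in the Rc libraries. Summed over libraries, 9 of 75 counts were shortened in stored seeds (12%, exact 95% interval 5.64 to 21.6%) and 12 of 59 in Rc (20.3%, exact 95% interval 11 to 32.8%).

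**Figure D4:**
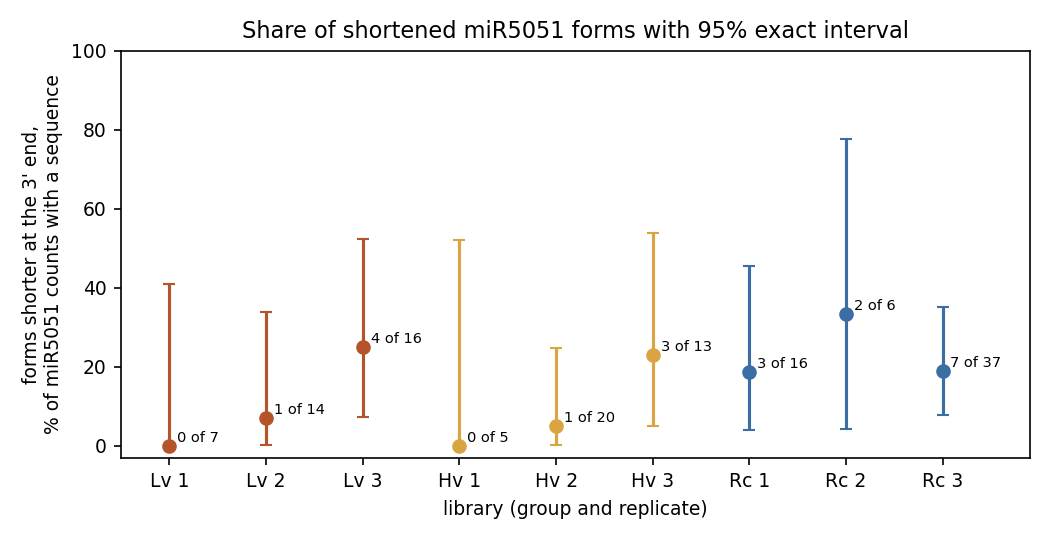
Share of the miR5051 counts with a sequence that were shorter at the 3′ end, in percent per library, with exact 95% intervals as bars and the counts beside each point. The Rc libraries lie between 18.8 and 33.3% and the stored libraries between 0 and 25%, and the intervals of all libraries overlap.

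hvu-new81 offered a check on how the same molecule was counted along both routes. It had 105 counts in total, or 92.9% of those of miR5051.4, and the counts were equal in 6 of 9 libraries. It was lower by 1 count in Lv replicate 1, by 3 in Lv replicate 3 and by 4 in Hv replicate 3. The deficit thus fell on stored seeds alone, with 58 counts of hvu-new81 for 66 of miR5051.4 in stored seeds and 47 for 47 in Rc. It also fell on run 2 alone, with 34 counts of hvu-new81 for 42 of miR5051.4 in run 2 and 58 for 58 in run 1. The stored libraries of run 1, Hv replicates 1 and 2, had equal counts under both names (5 and 19), like Rc replicates 2 and 3. No Rc library is known to hold run 2 alone, so that regenerated seeds in run 2 were not compared.

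In the comparisons, the copy gave log2 fold changes of -0.01 in Lv over Hv, -0.12 in stored over Rc seeds, -0.13 in Lv over Rc and -0.11 in Hv over Rc (SE 0.61 to 0.71, edgeR adjusted p from 0.964 to 1). For the same molecule the sign of each value thus differed from that of miR5051.4. The standard errors describe the spread between libraries and do not measure the gap between both rows. That gap goes back to the lower counts in Lv replicates 1 and 3 and Hv replicate 3. The sign of hvu-new81 also turned to 0.04 in Lv over Hv and to 0.01 in Lv over Rc under DESeq2 size factors.

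Other rows of the table were pairs of a known and a predicted miRNA with the same sequence. miR168.10, of the family that targets AGO1, and hvu-new43 differed in the same 3 libraries as the miR5051.4 pair, by 4, 7 and 4 counts, and were equal in the other 6. miR166.7, of the family that targets HD-ZIP III transcription factors, and hvu-new45, listed at 4 loci, differed by 79 counts in Lv replicate 3 only, after the known count was multiplied by the number of loci. miR156.5, of the family that targets SPL transcription factors, and hvu-new54, also listed at 4 loci, were equal in all 9 libraries. No pair was unequal in any of the 4 libraries of run 1.

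**Figure D5:**
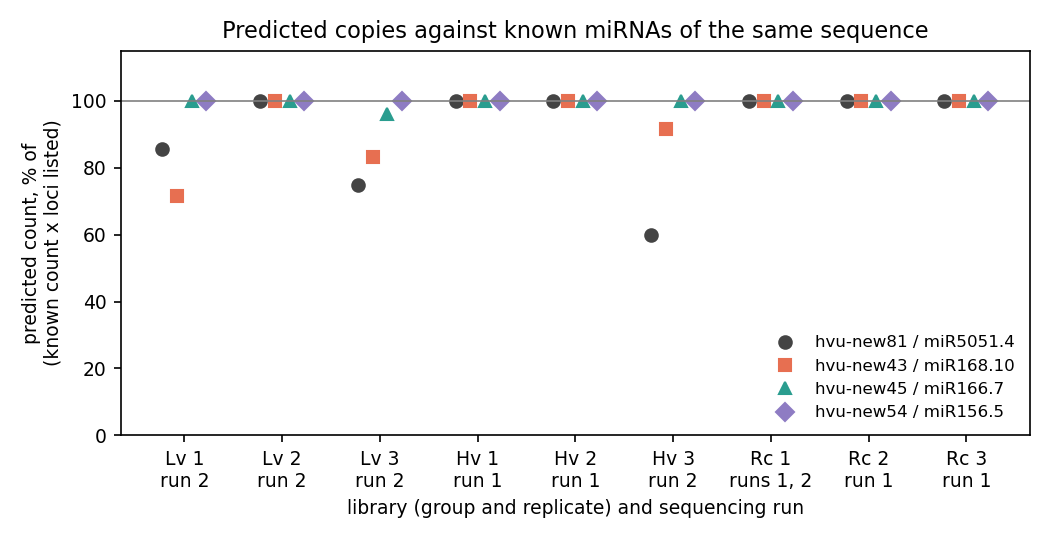
Count of each predicted miRNA in percent of the count of the known miRNA with the same sequence, multiplied by the number of loci listed, for 4 pairs and 9 libraries with the sequencing run under each library. All values of run 1 lie at 100%, and hvu-new81 lies below 100% in Lv replicates 1 and 3 and Hv replicate 3.

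The miRNAs whose pattern over the 9 libraries was most like that of miR5051.4 were sought by the mean absolute difference of centred log2 CPM over 98 tested miRNAs. After its copy, which differed by 0.18, the nearest were hvu-new52 at 0.34, miR168.10 at 0.37 and hvu-new43 at 0.39. As a pair of the same sequence, miR168.10 and hvu-new43 are not separate molecules. Among known miRNAs, miR168.10 was followed by miR166.7 and miR159.5, both at 0.45, and miR159 is a family that targets GAMYB transcription factors. The median over all 98 was 0.88. These values describe likeness over the same 9 libraries, which differed in depth and run.

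Families restricted to a lineage and conserved families were compared as background. Of 25 rows in 7 families taken as lineage-specific, miR5051 included, 11 were tested, and of 36 rows in 6 conserved families 17 were tested. None was called in either direction in any of the 4 comparisons by edgeR, against 0% of all 99 miRNAs. In stored over Rc seeds the median log2 fold change was -0.08 in the lineage-specific rows and -0.06 in the conserved rows, where the median over all miRNAs tested was -0.19. At an unadjusted p under 0.05 stood 0 of the 11 lineage-specific rows and 1 of the 17 conserved rows, against 10 of all 99 miRNAs tested (10.1%).

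The targets of miR5051 are predictions, made by the authors with psRNATarget, and only part of their list was used here. Only sites of miR5051.4 that span its full length without a gap were kept. The authors' expectation scores were not used. The sites with the most paired bases are shown to make clear how far they depart from full pairing, 5′ to 3′ on the transcript, with bases that form no Watson-Crick pair with miR5051.4 in capitals.
Beta-amylase-like transcript: ucccaCuuuUaGgguUUUaaa
DNA-directed RNA polymerase subunit beta: uUUUGguuucGaUgugcAaaa
DNA-directed RNA polymerase homologue: ucGAaguuucaagguCcUGaa
Beta-amylase releases maltose from starch, and its site had 19 of 21 bases paired, 15 as Watson-Crick and 4 as G-U pairs, with mismatches at positions 6 and 16 from the 5′ end of the miRNA. RNA polymerase transcribes DNA. The site in its subunit beta also had 19 paired bases, 14 of them Watson-Crick and 5 G-U, with mismatches at positions 4 and 9. The homologue's site had 18 paired bases, 16 of them Watson-Crick and 2 G-U, with mismatches at positions 6, 18 and 19.

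Sites in Autophagy protein 9, a membrane protein of autophagosome formation, and in the leaf isozyme of glutamine synthetase, which assimilates ammonium, also had 18 paired bases, but fewer Watson-Crick pairs (15 and 13). A site in an NBS-LRR protein, a class of intracellular immune receptors, had 17. All 6 sites were paired at positions 10 and 11, where Argonaute cuts a target, if G-U pairs are counted. The beta-amylase site had a G-U pair at position 10. The sites in RNA polymerase subunit beta and Autophagy protein 9 had a G-U pair at position 11. Position 6, unpaired in the precursor, was unpaired in 4 of the 6 sites. No transcript levels were measured in these libraries, so that an effect on any of these targets was not tested.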

How the data were processed

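Reads were trimmed, filtered and aligned by the authors to barley build IBSC_v2 in the UEA Small RNA Workbench. Exact matches to miRBase were counted with miRProf as known miRNAs, and miRCat supplied the predicted ones. They deposited whole-number raw counts per miRNA and library. The authors' normalized values, a rounded score that DESeq2 scaling gives, were not used. Columns holding the authors' own fold changes and p-values for stored against Rc were not used either.

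Counts of all 9 libraries were fitted with edgeR 4.0.16 in R 4.3.3, with TMM, a minimum of 10 counts over the libraries, the quasi-likelihood test and Benjamini-Hochberg adjustment at 0.05. DESeq2 1.42.0 was the alternative tool. RPM is the count over the mapped reads that the study lists. For shares and levels the exact permutation test of scipy 1.17.1 was used, two-sided, with a pseudocount of 1 for log2 RPM, and intervals of shares are Clopper-Pearson. Standard errors, as the fit gives them, rest on 3 libraries a group. Precursors were folded with RNAfold 2.7.2. The fit was tested on simulated data, and the permutation test on set values with a known answer.

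The members and lists were chosen with earlier results of these data known. Named are the 5 members, pairs of a known and a predicted miRNA of equal sequence, the 3 miRNAs most like miR5051.4 overall and among known ones, and the families next to miR5051 in total counts. Also named are the 3 sites with the most paired bases among the full-length sites of miR5051.4 without a gap. The further 3 sites were named after their values were seen.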

Additional observations from a re-analysis of the deposited data

Results flagged for a closer look

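The family sum of miR5051 in Hv replicate 2 was 73.3 RPM of mapped reads and stood apart from the other stored libraries. Its gap to the nearest of the 6 stored libraries was 0.628 of their whole range, just above Dixon's critical value for 6 samples. Chance flags about 1 in 20 groups, and 9 values were looked at in this way. As a share of known miRNA counts the same library (1.00%) was highest as well, with a gap of 0.386 of the range, below the critical value. miR5051.4 alone in RPM had a gap of 0.603, also below it.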

How the results depend on the processing

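No call on a member changed under any alternative, and the adjusted p of miR5051.4 lay between 0.761 and 1 over the alternatives of the edgeR fits. The sign of its log2 fold change turned. For Lv over Hv, scaling to the mapped reads gave -0.052. For stored over Rc seeds it was -0.31 with mapped reads, -0.15 with known miRNAs only, -0.017 without the filter on low counts and -0.13 with the miR5051 rows summed. For Lv over Rc it was -0.34 with mapped reads, -0.087 with known miRNAs only and -0.10 with the rows summed. For Hv over Rc it was -0.28 with mapped reads, -0.21 with known miRNAs only, -0.081 without the filter, -0.001285 without predicted copies and -0.16 with the rows summed. In RPM the sign turned with the share of known counts, to 0.12 for stored, 0.22 for Lv and 0.021 for Hv over Rc. The cause was not tested.

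Leaving out each library in turn moved miR5051.4 between -0.20 and 0.53 for Lv over Hv, -0.31 and 0.32 for stored over Rc, -0.28 and 0.34 for Lv over Rc, and -0.48 and 0.31 for Hv over Rc. The sign turned for Lv over Hv without Lv replicate 1 (-0.052), Hv replicate 1 (-0.040) or Hv replicate 3 (-0.20), for stored over Rc without Lv replicate 1 (-0.0015), Hv replicate 2 (-0.21) or Rc replicate 2 (-0.31), for Lv over Rc without Lv replicate 1 (-0.028) or Rc replicate 2 (-0.28), and for Hv over Rc without Lv replicate 2 (-0.0026), Hv replicate 2 (-0.48) or Rc replicate 2 (-0.34). In log2 RPM the ranges were -0.16 to 0.58, -0.77 to 0.22, -0.71 to 0.28 and -0.82 to 0.17 in the same order. The shortened share of Lv minus Hv ran from -5.79 to 8.21 percentage points, turning without Lv replicate 3 (-5.79), Hv replicate 1 (-3.32) or Hv replicate 2 (-0.82), that of stored minus Rc from -16.6 to -8.80, that of Lv minus Rc from -20.1 to -7.60 and that of Hv minus Rc from -21.2 to -9.48. For hvu-new81 and miR5051.3, whose alternatives were added after seeing the data, the ranges were -0.39 to 0.64 and -0.91 to 1.05 for Lv over Hv. Those of hvu-new81 were -0.47 to 0.16 for stored over Rc, -0.47 to 0.14 for Lv over Rc and -0.78 to 0.24 for Hv over Rc, and those of miR5051.3 were -1.59 to -0.86, -2.05 to -0.59 and -2.08 to -0.76.

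With run as a covariate, hvu-new81 turned to 1.27 for Lv over Hv, 1.08 for stored, 1.72 for Lv and 0.45 for Hv over Rc, and miR5051.3 turned to -0.65 for Lv over Hv and stood at -2.23 for stored, -2.56 for Lv and -1.90 for Hv over Rc. In these fits, too, Rc replicate 1 was dropped and the run term rested on the Hv libraries. hvu-new81 also turned for Lv over Hv, to 0.045 with DESeq2 size factors, 0.053 without the filter and 0.047 with DESeq2. For Lv over Rc it turned to 0.013 with DESeq2 size factors. Replicate numbers did not pair the libraries (correlations of deviations from -0.227 to 0.192). In the fit with the replicate block no miRNA was called, miR5051.4 stood at 0.048 for Lv over Hv, 0.041 for stored, 0.065 for Lv and 0.018 for Hv over Rc, and hvu-new81 turned to 0.034 for Lv over Hv.

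The number of miRNAs called, 0 by edgeR, became 2 for stored over Rc and 1 for Lv over Rc without the filter, and 3, 2 and 1 for stored, Lv and Hv over Rc with DESeq2. Leaving out a library gave 0 to 1 in each comparison, with 1 for Lv over Hv without Lv or Hv replicate 3, for stored over Rc without Hv replicate 1 or 2, for Lv over Rc without Lv replicate 3 or Hv replicate 1 or 2, and for Hv over Rc without Hv replicate 1 or 3. None was a member. The depth limits these results, as 4 to 30 counts a library stand behind miR5051.4 and 0 to 5 behind miR5051.3.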
